A study of Caenorhabditis elegans with 2 samples.

Results

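The core cell death genes of Caenorhabditis elegans are examined here in a chromatin immunoprecipitation and sequencing (ChIP-seq) map of LIN-35, the worm pocket protein of the retinoblastoma family. The 6 genes, egl-1, ced-13, ced-9, ced-4, ced-3 and cep-1, were listed by name, out of 19985 annotated protein-coding genes, and all 6 were found in the annotation. The map comes from 2 biological replicates of 1 group, so there is no second condition. Both replicates were whole young adults of mixed sex and of strain YL468, which carries unc-119(ed3) and the transgene vrIs93. The transgene drives a LIN-35:GFP:FLAG fusion from the mex-5 promoter, which is active in the germ line, followed by the 3′ UTR of lin-35 and a rescuing unc-119 copy. The labels list no mutation in lin-35, and they do not settle whether the tag or LIN-35 itself was the epitope. With whole animals and an unsettled epitope, no peak can be placed in the germ line or the soma. If the tag was the epitope, signal would come only from cells that make the fusion.

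In worms, programmed cell death runs along a short chain. The BH3-only proteins EGL-1 and CED-13 bind CED-9, the Bcl-2 relative that otherwise holds CED-4 inactive. Freed CED-4, the worm Apaf-1, activates the caspase CED-3, and CEP-1, the p53 relative, switches on egl-1 and ced-13 after DNA damage. LIN-35 is known from genetic work in worms to promote germ cell death, with ced-9 as a repressed target, and E2F and DP genes are known to act on ced-3 and ced-4. The lists were examined for LIN-35 signal at the starts of these 6 genes.

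Each deposited list gives peaks with a summit and a signal, the authors' own value whose scale is not stated, and ranks here count from the highest signal in a list. The pooled list held 30000 peaks with a median signal of 6.20, replicate 1 held 30000 with a median of 4.88, and replicate 2 held 18226 with a median of 3.23. The authors' thresholded list held 550 peaks, down to a signal of 24.8, and the next pooled peak, at rank 551, fell just short of that value. The pooled and replicate lists contain background as well as peaks, and of the 29969 nuclear pooled peaks only 21.5% overlapped a peak in both replicates. Read depth is unknown, and signals were not compared in size between replicates. A gene was called when its promoter window held a summit, and the window of each annotated transcript reached 1000 bp upstream and 300 bp downstream of the start.

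None of the 6 genes had a thresholded summit in its promoter window, where 2.77% of all protein-coding genes had one. The count was also 0 for the 1000 highest pooled peaks (4.51% of all genes) and for the 3000 highest (9.56% of all genes). In the whole pooled list, 1 of 6 members had a window summit, against 42.9% of all genes, and that member was ced-4. Replicate 1 gave 1 of 6 (42.1% of all genes) and replicate 2 gave 2 of 6 (29.9% of all genes), the second being ced-9. Both replicates placed a summit in the window of ced-4 alone, 1 of 6 beside 18.6% of all genes, and the pooled and both replicate lists together gave the same 1 of 6 beside 17.3%. With 6 genes, these counts do not set the members apart from other genes.

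The strongest peak near any member's start lay upstream of ced-9. It sits at the head of the transcription unit that ced-9 shares with mev-1, a gene for a cytochrome b subunit of respiratory complex II, known to be transcribed together with ced-9 as an operon. The stretches below show a summit and string matches described in the text, from the WBcel235 genome sequence of RefSeq, which is ce11. Genes were called from summit positions and not from these bases. Each is 30 bases, written 5′ to 3′. Capitals mark either a single summit base, a CHR-like string (TTTGAA or TTCGAA, of the kind read by the DREAM subunit LIN-54) or an E2F string (TTTCCCGC, TTTCGCGC, TTTGCCGC or TTTGGCGC).
Pooled summit between jmjd-4 and mev-1, III:10334108-10334137, plus strand: aaaagtgcgcccgggTcgtttgctgacgca
CHR-like string beside that summit, III:10334130-10334159, minus strand: cagcgcgtctcgTTTGAAgagatgcgtcag
E2F string in the first part of mev-1, III:10334319-10334348, plus strand: cagatcgtcgaTTTCCCGCtcctttggaac
CHR-like string upstream of ced-4, III:4852243-4852272, plus strand: gctaaccgttgtTTCGAAaacatcacctag
E2F string in C35D10.7, downstream of ced-4, III:4856544-4856573, minus strand: gaaaacacatgTTTCGCGCgctttcacttg
E2F string upstream of ced-3, IV:13204702-13204731, plus strand: tacgcatcataTTTGGCGCgcaaaatatct
CHR-like string at the intronic ced-3 summit, IV:13202882-13202911, minus strand: gcttcaagatatTTTGAAaagaattttaaa

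ced-9, the inhibitor of the chain, lies at III:10335172-10337522 on the plus strand, 4 bp after the end of mev-1 in the same orientation. The peak between mev-1 and its divergent neighbour jmjd-4 (III:10333945-10334300) had a pooled signal of 23.9, with 17.02 in replicate 1 and 6.51 in replicate 2. Its pooled rank was 608 of 30000, its rank in replicate 1 was 651 of 30000 and in replicate 2 it was 1726 of 18226, so all 3 lists held it among their higher peaks. Pooled and replicate 1 summits fell on the same base and that of replicate 2 stood 27 bp away. Among the 200 nuclear pooled peaks from rank 500 to rank 700, 89% overlapped peaks in both replicates, with a median gap of 46 bp between replicate summits.

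That summit was 154 bp upstream of the mev-1 start, 105 bp upstream of the jmjd-4 start and 1049 bp upstream of the annotated start of ced-9. It therefore missed the ced-9 window by 49 bp, missed the authors' threshold by 58 ranks, and was called for mev-1 and jmjd-4 only. Of the 8580 genes with a pooled window summit, 7.05% had a higher best signal than mev-1, as did 7.31% in replicate 1 and 19% in replicate 2. Which of the 3 genes the signal belongs to cannot be told apart from peak positions. A CHR-like string lay 22 bp from the summit and the E2F string 211 bp from it, in a coding exon of mev-1.

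**Figure D1:**
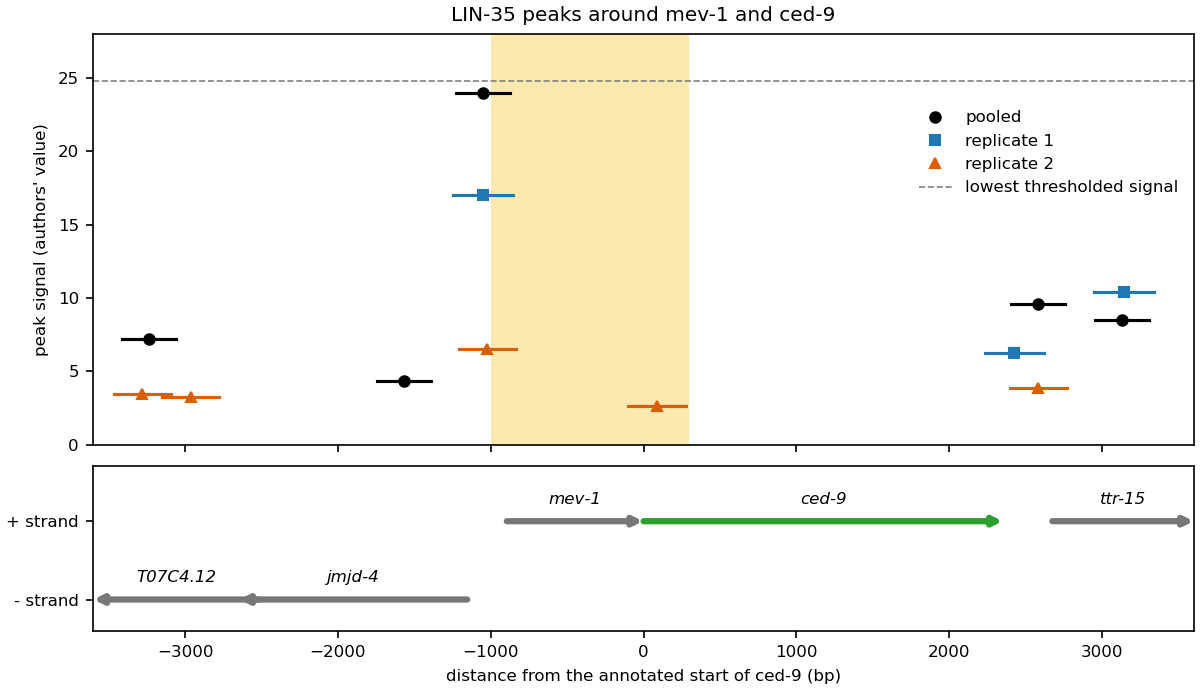
Upper panel: signal (authors' value) of each pooled, replicate 1 and replicate 2 peak against distance in bp from the annotated ced-9 start, with bars for peak intervals, symbols for summits, shading for the promoter window and a dashed line at the lowest thresholded signal. Lower panel: genes as arrows by strand. The peak with pooled signal 23.9 lies just left of the shaded window, between jmjd-4 and mev-1, and only a replicate 2 peak of signal 2.67 lies inside the window.

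Inside the ced-9 window itself only replicate 2 had a summit, 88 bp downstream of the start in a coding exon, with a signal of 2.67 at rank 12507. Among the 5966 genes with a replicate 2 window summit, 77% had a higher one. Past the end of ced-9, a summit 229 bp downstream of the gene (pooled signal 9.61, rank 5318) overlapped peaks of signal 6.25 in replicate 1 and 3.91 in replicate 2, and fell in the window of the next gene, ttr-15. The ced-9 locus, the gene with 10 kb on either side, had the most pooled summits of the 6 loci, 12, or 5.37 per 10 kb beside 3.60 per 10 kb over chromosome III.

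ced-4, the Apaf-1 relative, was the only member with a window summit in the pooled and both replicate lists. The gene lies at III:4852325-4855171 on the plus strand. Its pooled peak (III:4852065-4852420) had a signal of 6.66 at rank 12949, with the summit in intergenic DNA 82 bp upstream of the start. Replicate 1 gave a signal of 5.38 at rank 12563, 286 bp upstream, and replicate 2 a signal of 2.44 at rank 14275 of 18226, 68 bp upstream. The replicate 2 summit was thus 14 bp from the pooled one and that of replicate 1 was 204 bp from it. Between the replicates the summits were 218 bp apart. Among the next 5000 nuclear pooled peaks after rank 10000, 16.3% overlapped peaks in both replicates, with a median gap of 154 bp between their summits.

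Peaks of this size were common. Among genes with a window summit, 58.1% had a higher best signal than ced-4 among pooled peaks, 56.3% in replicate 1 and 84.2% in replicate 2, so ced-4 was below the middle in each list. No other gene's window held the ced-4 summit. A CHR-like string, shown above, lay 15 bp from it, and no E2F string lay within 100 bp. Of the 3453 genes with a window summit in all 3 lists, the closest to ced-4 in log2 signal over those 3 lists were fbxa-108 (pooled signal 6.74, distance 0.0556) and pin-2 (6.88, distance 0.0625). This likeness is of 3 values from 2 samples.

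Higher peaks stood on either side of ced-4 than at its own start. Upstream, F26A1.1 ends 415 bp before ced-4 on the same strand, and a summit shared by its window and that of nonu-1 had a pooled signal of 7.89 (rank 8863) and a replicate 1 signal of 5.98, with no replicate 2 peak. Downstream, C35D10.8 begins 47 bp after ced-4 and is followed by C35D10.7 in the same orientation. A summit in an intron of C35D10.7 had a pooled signal of 10.5 (rank 4123), 5.43 in replicate 1 and 3.96 in replicate 2. The summits of both replicates lay within 39 bp of the pooled one, and the E2F string of C35D10.7 lay 38 bp from it. This C35D10.7 summit was 1 of 2 pooled summits with an E2F string within 100 bp among the 46 at the 6 loci. The other, in an intron of C48D1.9 upstream of ced-3, had rank 24750. Over all genes, 4.97% of pooled window summits had such a string. That share covers promoter windows only, while the 46 include summits outside any window.

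ced-3, the caspase gene (IV:13198261-13204137, minus strand), has 2 annotated starts and had no window summit in any list, though 2 pooled summits stood just beyond its windows. The first, in intergenic DNA 1188 bp upstream of the first start (IV:13205147-13205502), had a signal of 9.21 at rank 6013. Overlapping peaks had summits at 1083 bp with a signal of 3.15 (rank 27970) in replicate 1 and at 1052 bp with a signal of 3.01 (rank 10341) in replicate 2. This was the highest pooled signal within 10 kb of ced-3, yet in replicate 1 it was near the bottom of the list.

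The other summit was in an intron of ced-3, 1003 bp upstream of the second start and so 3 bp outside the window (IV:13202714-13203069). It had a pooled signal of 4.95 (rank 22357) and a replicate 1 signal of 5.60 (rank 11617) at the same base, and replicate 2 had no peak there. A CHR-like string lay 5 bp from this summit. The E2F string upstream of ced-3 lay 580 bp before the first start and 608 bp from the nearest pooled summit. Of the 10 pooled summits at the ced-3 locus, 2 overlapped peaks in both replicates.

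egl-1 and ced-13, the BH3-only genes, were the members farthest from any pooled summit. egl-1, at V:14431308-14432359 on the minus strand, is known to be controlled in single neurons by elements in the DNA on either side of the gene, some far outside a promoter window. Its nearest pooled summit was 7050 bp downstream of its start, in the promoter window of rrsr-1, with a signal of 8.43 at rank 7547. Only 7.05% of nuclear protein-coding genes were farther from a pooled summit. In replicate 1 the nearest summit was 5697 bp downstream (signal 4.55, rank 17010). Replicate 2 alone had summits closer in, 1457 bp upstream of the start (signal 3.91, rank 6224) and 2805 bp downstream of it (signal 3.30, rank 8803). None of the 6 pooled summits at the egl-1 locus overlapped peaks in both replicates.

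ced-13 lies at X:8299119-8299654 on the minus strand, 373 bp after inx-5, an innexin gene, on the same strand, and neither gene had a window summit in any list. The nearest summit to ced-13 was 4842 bp upstream among pooled peaks (signal 6.90, rank 11983), 4797 bp upstream in replicate 1 (signal 3.32, rank 26385) and 7993 bp downstream in replicate 2 (signal 2.29, rank 15488). In the pooled list 12.8% of genes were farther away. The locus had 3 pooled summits, the fewest of the 6, or 1.46 per 10 kb beside 2.57 per 10 kb over the X chromosome, and 0 of them overlapped peaks in both replicates.

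cep-1, the p53 relative, has 4 annotated starts and none had a window summit. The gene lies at I:8324286-8328859 on the plus strand, and its upstream start region is shared with F52B5.3, which begins 299 bp away on the other strand. No list had a summit between these divergent starts. The nearest pooled summit lay in an intron in the last part of cep-1, 1036 bp downstream of its innermost start, with a signal of 9.41 (rank 5644). Overlapping peaks had signals of 6.21 in replicate 1 (rank 9266) and 3.75 in replicate 2 (rank 6819), with summits 60 bp and 14 bp from the pooled one. It was the only pooled summit at the cep-1 locus that overlapped both replicates. The highest pooled signal there, 13.7 at rank 2066, lay 1157 bp past the end of cep-1, in the windows of rpl-25.2, a ribosomal protein gene, and C34B7.1. Replicate 1 had that peak at a signal of 12.7 (rank 1329) and replicate 2 had none.

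**Figure D2:**
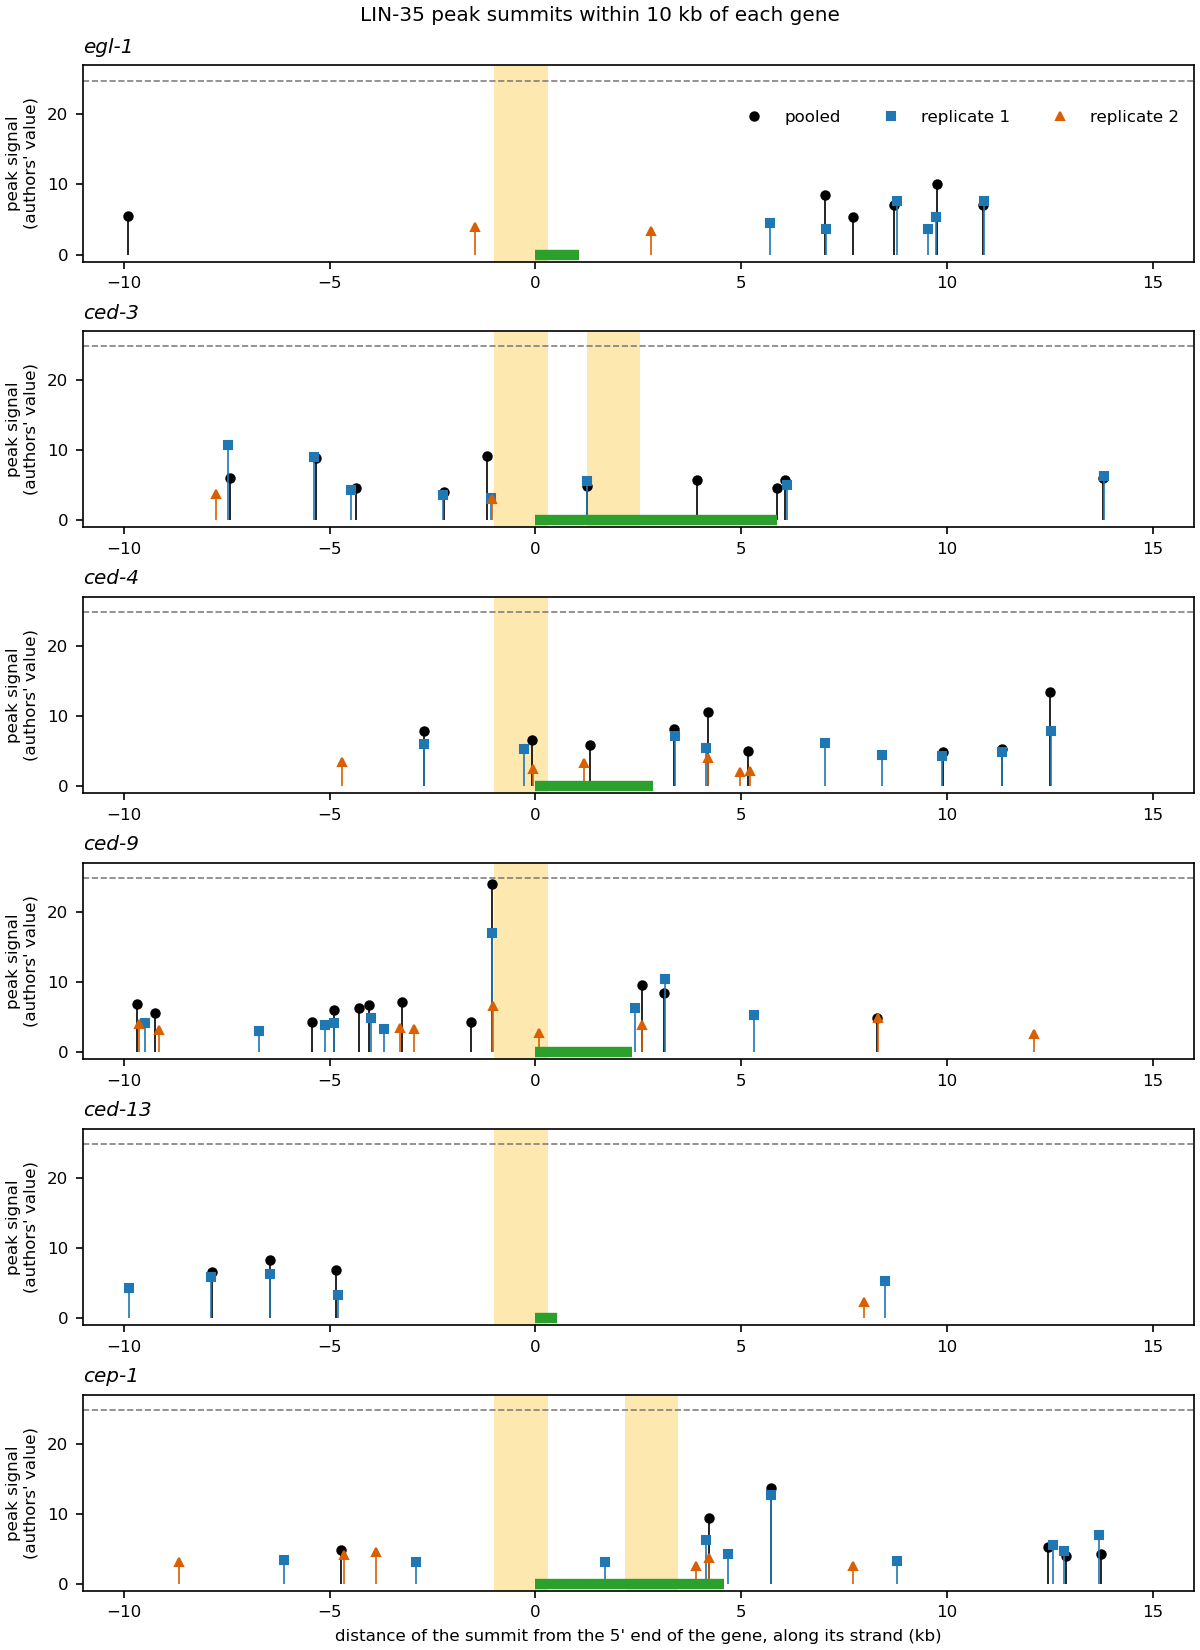
Signal (authors' value) of each peak against the distance of its summit in kb from the 5′ end of the gene, along the gene's strand, for the pooled, replicate 1 and replicate 2 lists, at the 6 genes with 10 kb on either side. Green bars are gene bodies, shading marks the promoter windows of all transcript starts and dashed lines the lowest thresholded signal of 24.8. Only the ced-4 panel has symbols of all 3 lists in a window, and the peak of 23.9 upstream of ced-9 is the only one close to the dashed line.

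Ordered by distance from a start to the nearest pooled summit, ced-4 came first at 82 bp, followed by ced-3 at 1003 bp, cep-1 at 1036 bp, ced-9 at 1049 bp, ced-13 at 4842 bp and egl-1 at 7050 bp. The median over 19973 nuclear protein-coding genes was 911 bp and over the 6 members 1042 bp. ced-3, cep-1 and ced-9 stood within 46 bp of each other, less than the median gap of 111 bp between the replicates' summits of a nuclear peak, so their order is not resolved. A closer summit was found for 8.48% of genes in the case of ced-4, for 52.3 to 53.3% in those 3 cases, for 87.1% with ced-13 and for 92.9% with egl-1. The order differed between replicates. Replicate 1 had ced-4 at 286 bp, cep-1 at 976 bp, ced-3 at 1003 bp, ced-9 at 1049 bp, ced-13 at 4797 bp and egl-1 at 5697 bp. In replicate 2, ced-4 at 68 bp was followed by ced-9 at 88 bp, through the weak summit in its coding exon, with 6% of genes closer, where replicate 1 had 52.9% closer. cep-1 came next at 721 bp, then ced-3 at 1052 bp, egl-1 at 1457 bp with 46.3% of genes closer, and ced-13 at 7993 bp with 90.8% closer. ced-4 came first in the pooled and both replicate lists, but its lead over ced-9 in replicate 2 was smaller than the median gap between replicate summits.

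**Figure D3:**
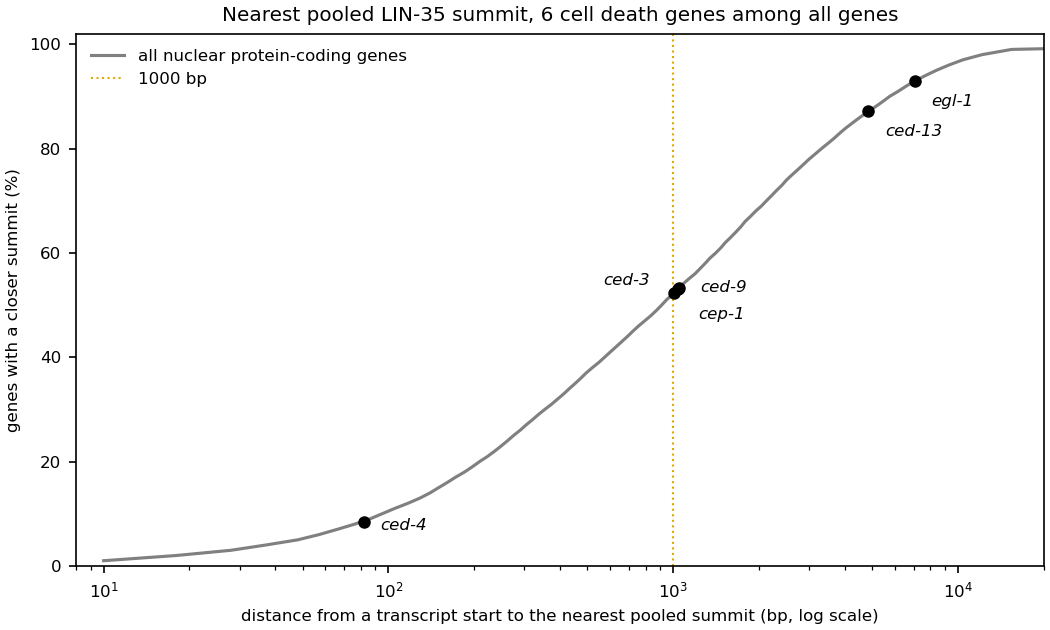
Share of nuclear protein-coding genes with a closer pooled summit (percent) against distance from a transcript start to the nearest pooled summit (bp, log scale). The grey line covers all 19973 genes, points are the 6 members, and the dotted line marks 1000 bp. ced-4 lies at 82 bp, 3 members lie just past 1000 bp, and ced-13 and egl-1 lie in the upper part of the curve.

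Of the 46 pooled summits at the 6 loci, 9 (19.6%) overlapped peaks in both replicates, close to the 21.5% of all nuclear pooled peaks. Both E2F and CHR-like strings were searched on both strands, the palindrome TTCGAA was counted once, and strings of one kind do not contain those of the other. An E2F string was present in the promoter windows of 2 of 6 members, ced-3 and ced-9, beside 20.2% of all nuclear genes, and neither string lay within 100 bp of a pooled summit. Within 100 bp of the summit, an E2F string was found at 4.97% of pooled window summits and at 17.1% of thresholded ones, and in 2.90% of equally long stretches from 150 bp before to 50 bp after gene starts. CHR-like strings were near 30 of the 46 summits, beside 56.2% of pooled window summits, 65.9% of thresholded ones and 53% of start stretches, and in 99.2% of whole promoter windows, so a match carries little information. The 46 summits include some outside any promoter window, so they are not a like set to the window summits. A match is a string of letters and not a shown site.

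The wider cell death machinery was examined in 6 lists holding 74 genes. Of these, 4 had a thresholded window summit (5.41%, beside 2.77% of all genes), 11 had one among the 3000 highest pooled peaks (14.9%, beside 9.56%), 43 had any pooled window summit (58.1%, beside 42.9%) and 19 had summits in both replicates (25.7%, beside 18.6%). The median distance to the nearest pooled summit was 446 bp. These shares describe the lists, and no test was made of them. For each gene below, replicate ranks are those of the best window summit in each list. Overlap with the pooled peak was not required, so they need not belong to the same peak.

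Of 11 related genes with a window summit among the 3000 highest pooled peaks, 4 were damage checkpoint genes and 5 germline death control genes. Another 1 was an engulfment gene and 1 a caspase relative or execution gene. The lists were chosen with earlier results of these data known. Of 9 damage checkpoint genes, 2 had a thresholded summit, 4 had one among the 3000 highest pooled peaks, and 3 had summits in both replicates, beside 2.77, 9.56 and 18.6% of all genes. The highest were hpr-17, the Rad17 clamp loader gene (signal 35.5, shared with F32A11.1), mrt-2, the Rad1 clamp gene (30.7), and the kinase genes atm-1 (15.08, shared with F56C11.3) and chk-1 (15.07). Of these 4, mrt-2 was high in both replicates, at rank 282 in replicate 1 and 366 in replicate 2. The ranks of hpr-17 were 140 in replicate 1 and 5752 in replicate 2, while those of atm-1 were 14589 and 526. chk-1 had rank 739 in replicate 1 and no window summit in replicate 2.

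Of 14 germline death control genes, 1 was thresholded, 5 were among the 3000 highest and 5 had summits in both replicates, beside the same shares of all genes. The list was led by cgh-1, an RNA helicase gene whose loss is known to raise oocyte death (57.2), the eIF5A gene iff-1 (22.1, shared with cdk-1), the ERK kinase gene mpk-1 (17.1) and cpb-3, a CPEB relative (14.2). cgh-1 ranked 147 in replicate 1 and 110 in replicate 2, and iff-1 ranked 3698 and 320. mpk-1 had rank 1187 in replicate 1 but 15979 of 18226 in replicate 2, and cpb-3 had rank 3201 in replicate 1 and no window summit in replicate 2.

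Engulfment genes, which clear dying cells, had 12 of 17 members with a pooled window summit, beside 42.9% of all genes, 6 with summits in both replicates, beside 18.6%, and 0 thresholded, beside 2.77%. At that last share, 0 of 17 does not set the list apart. The highest were psr-1, a phosphatidylserine receptor relative (20.7), the myotubularin gene mtm-1 (11.5), the ABC transporter gene ced-7 (10.05) and the ELMO relative ced-12 (8.56). psr-1 ranked 2409 in replicate 1 and 704 in replicate 2. ced-7 ranked 5754 and 10426, ced-12 ranked 19983 and 13205, and mtm-1 had no window summit in replicate 2.

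Of 8 caspase relatives and execution genes, 5 had a pooled window summit, beside 42.9% of all genes, and 3 had summits in both replicates, beside 18.6%. icd-1, which encodes a subunit of the nascent polypeptide-associated complex, was thresholded (42.8, shared with vps-32.1), with rank 139 in replicate 1 and 757 in replicate 2. Next came cnt-1, an ArfGAP known to be cleaved by CED-3 (10.5), drp-1, a mitochondrial fission dynamin (9.33, shared with fem-1), and the caspase relative csp-2 (7.15). cnt-1 was near the bottom of the replicate 2 list at rank 17975 of 18226, drp-1 had no window summit in replicate 2, and csp-2 had none in either replicate.

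Of 10 DNA degradation genes, 5 had a pooled window summit, beside 42.9% of all genes, and 0 were among the 3000 highest, beside 9.56%. They were crn-1 (8.06), crn-4 (7.31), crn-3 (6.90), nuc-1, a DNase II gene (5.17), and crn-5 (4.42). Only crn-3 had summits in both replicates, 1 of 10 beside 18.6% of all genes. Its ranks were 19419 in replicate 1 and 2798 in replicate 2. The list for cell death specification held 16 genes, mostly transcription factors that set which cells die, some known to act on egl-1 and others at other steps. Of these, 4 had a pooled window summit, beside 42.9% of all genes, and 0 were among the 3000 highest, beside 9.56%. They were tra-1, the sex determination factor known to repress egl-1 (9.37), pal-1, a Caudal relative known to act on ced-3 (7.83), the zinc finger gene eor-1 (7.38) and the Hox gene lin-39 (5.34). Only eor-1 had summits in both replicates, 1 of 16 beside 18.6% of all genes, and the other 3 had none in replicate 2. With lists of 10 and 16 genes, counts of 0 and 1 at these shares do not set either list apart.

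**Figure D4:**
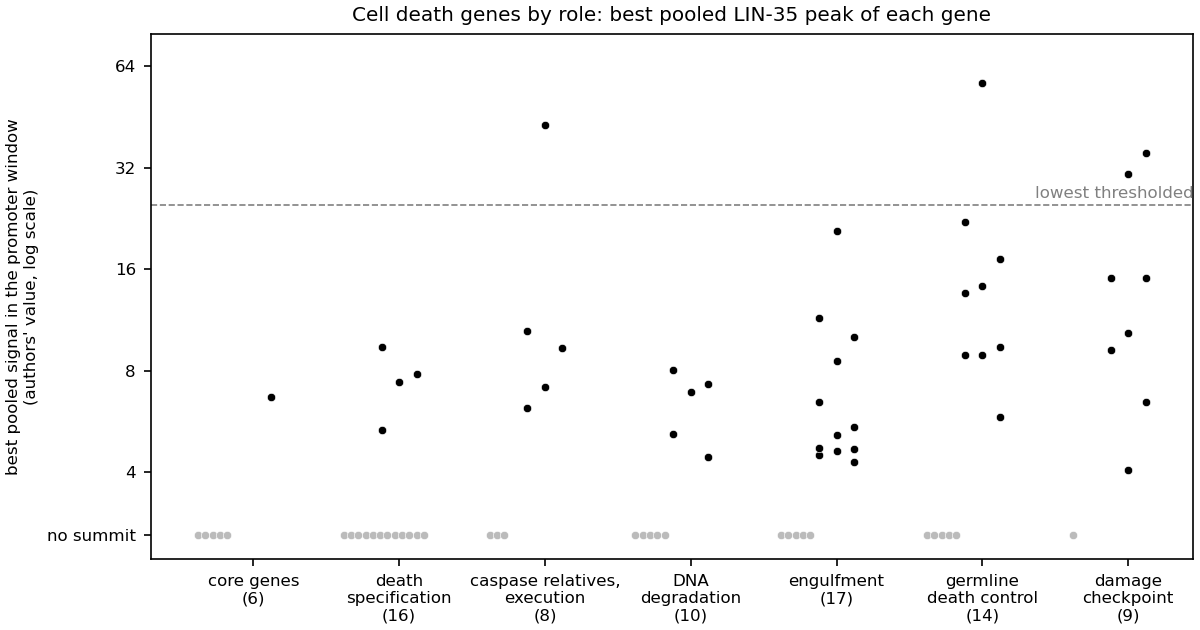
Best pooled signal in the promoter window (authors' value, log scale) of each gene in the core set and in 6 lists of related genes, with the number of genes in brackets. Black points are genes with a window summit, grey points those with none, and the dashed line is the lowest thresholded signal of 24.8. The core set has 1 black point, ced-4, and all 4 points above the line belong to other lists.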

How the data were processed

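Per the deposited text notes, peaks were called by the authors on the alignments of replicate 1, of replicate 2 and of both together, each set against a control library that was not analysed here. The thresholded list was derived from those lists. Aligner, caller, versions and the cutoff on irreproducible discovery rate (IDR) were not given in the sources used here. Peak signal is the authors' own value from the deposited lists. The −log10 of a q value in the deposited lists was not used for ranking. The 4 ce11 lists were used, and the 4 ce10 lists were not, since no positions were converted between builds.

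Starts came from Ensembl release 115 (WBcel235) and sequence from the RefSeq genome of the same build, after checking that no peak ran past a chromosome end. Genes named are the 6 members, genes sharing their summits, upstream same-strand neighbours within 1000 bp, the 2 genes most like a member with summits in all 3 lists, and up to 4 genes of highest pooled signal per related list. Other genes and positions, such as crn-5 and the peaks past the ends of genes, were picked once their values had been seen. Members and lists were chosen with earlier results of these data known. No test was made, since there is 1 group and the members are a listed set. Whether the replicates shared more than the strain is not stated. Assignment and string search were tested on simulated data. Python 3.11.15, numpy 2.4.6 and matplotlib 3.10.9 were used.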

Additional observations from a re-analysis of the deposited data

How the results depend on the processing

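The count of members with a thresholded summit stayed at 0 with a wider window, 2000 bp upstream to 500 bp downstream. It was also 0 by overlap of the peak interval. The shares of all genes were 3.44% with the wider window and 2.94% by overlap. For the 1000 (4.51% of all genes) or 3000 (9.56%) highest pooled peaks the count was 0 too. A window of 500 to 100 bp, nearest start and a stricter cut of the thresholded list only narrow the call, so they could not change a count of 0. With the 1000 highest pooled peaks and the start of mev-1 also counted for ced-9, the count was 1, ced-9 (4.52% of all genes). Counting the mev-1 start was a choice made after seeing the data. Of the members, 1 had a pooled summit, and this count became 3 (ced-3, ced-4 and ced-9) with the wider window (57.2% of all genes) or by interval overlap (48.1%). It was 2 with the mev-1 start (42.9%) and 0 with pooled ranks 1 to 3000 (9.56%) or 1 to 10000 (21%). In the replicates' own lists it was 1 in replicate 1 (42.1%) and 2 in replicate 2 (29.9%). Summits in both replicates likewise went from 1 to 3 with the wider window (30.3% of all genes) or by overlap (22.4%). The count was 2 with the mev-1 start (18.6%) and 0 with the 10000 highest peaks of each replicate (9.35%). With 6 genes, these counts do not set the members apart from other genes. The only pooled window summit of a member, that of ced-4, had no E2F string nearby at 50, 100 or 200 bp or with the string shortened. This rests on 1 summit and does not describe the 6 members. The signal of ced-4 was 6.66 in each window tried. The share of genes above it was 58.1% among pooled peaks, 56.3% in the list of replicate 1 and 84.2% in that of replicate 2. Depth is unknown and the epitope is not settled, so the absence of a peak is not a measured absence of LIN-35. No paired analysis was possible because there is a single group.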
